A study of Mus musculus with 2 samples.

Results

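The genes described here are 30 genes of inhibitory signalling by GABA and glycine: subunits of the ionotropic GABA-A receptors, both subunits of the metabotropic GABA-B receptor, glycine receptor subunits, the scaffold gephyrin, and the proteins that make, load, take up and break down the transmitters. They were chosen by name, and their peaks are those whose assigned gene in the authors' annotation table carries a member's symbol. By this rule 212 of the 99782 annotated peaks belonged to 29 of the 30 genes, and Gabrq, the theta subunit, counted as 0. The peaks came from CUT&Tag, in which an antibody tethers a Tn5 transposase to chromatin so that DNA near the antibody's target is cut and sequenced. Hippocampus of C57BL/6J mice of genotype CamK-PARIS gave 1 library with anti-FLAG, the antibody against the tag used to capture PARIS, and 1 with IgG as the negative control, neither with any treatment. Both libraries share genotype, strain and tissue, and the labels expand the genotype name no further: the promoter behind the transgene, the mice's age and sex, and how many mice each library holds are not given in the sources used here.

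PARIS (Zfp746 in the mouse) is a zinc-finger protein of the KRAB class that is known as a transcriptional repressor and as a substrate of the ubiquitin ligase parkin. GABA is the main inhibitory transmitter of the hippocampus: interneurons make it with glutamate decarboxylase, load it into vesicles, and release it onto GABA-A receptors, which are chloride channels, and onto GABA-B receptors, which act through G proteins. Glycine works in the same way through its own chloride channels, mainly in spinal cord and brainstem, and gephyrin holds both kinds of channel at the synapse.

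With 1 library per antibody no value has a replicate error and no test between groups was possible, so members are set beside all protein-coding genes or all peaks as a description. Peaks of 1 gene share their source and are not replicates of it. The hippocampus holds many cell types, and a strong signal in few cells cannot be told apart from a weak signal in many. Peaks do not measure expression, so the tissue label could not be checked against marker levels. The authors' maximum signal is the highest coverage within a peak, and its median over all peaks was 101 with a range from 5 to 2395. Of all peaks, 63.3% had the same coverage over nearly their whole length (total signal at least 99% of maximum signal times width), and these are called constant-height peaks. The shape is given for members throughout, and its part in the results was not tested.

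The sequences with the strongest signal near transcript starts of these genes come first, and some of these starts are internal to the gene. They come from the 6 members with the highest maximum signal in a peak within 1 kb of an assigned transcription start site (TSS), read from GRCm38, the build named mm10, 5′ to 3′ on the gene's own strand, with the region of maximum signal in capitals. For Gabbr2 only 30 bases are shown, all within the region of maximum signal, because its whole 200 bp window is annotated as untranslated region. The positions are chr4:46991691-46991720 (minus strand) for Gabbr2, chr5:71700800-71700999 (plus) for Gabrb1, chr17:37048284-37048483 (plus) for Gabbr1, chr5:71096275-71096474 (minus) for Gabra2, chr4:117835763-117835962 (plus) for Slc6a9 and chr11:42420805-42421004 (plus) for Gabrb2.
Gabbr2: CGCGCTGGAGAGAGGCGCGCGGAGACTCGG
Gabrb1: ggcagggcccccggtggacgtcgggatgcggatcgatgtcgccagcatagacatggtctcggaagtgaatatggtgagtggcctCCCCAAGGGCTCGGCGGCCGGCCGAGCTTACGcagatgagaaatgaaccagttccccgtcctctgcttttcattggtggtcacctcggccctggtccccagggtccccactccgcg
Gabbr1: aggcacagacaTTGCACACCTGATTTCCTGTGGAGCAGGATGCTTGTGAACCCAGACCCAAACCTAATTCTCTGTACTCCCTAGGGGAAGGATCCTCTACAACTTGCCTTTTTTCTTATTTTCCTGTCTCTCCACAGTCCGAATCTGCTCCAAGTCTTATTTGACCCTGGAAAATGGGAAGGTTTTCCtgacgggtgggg
Gabra2: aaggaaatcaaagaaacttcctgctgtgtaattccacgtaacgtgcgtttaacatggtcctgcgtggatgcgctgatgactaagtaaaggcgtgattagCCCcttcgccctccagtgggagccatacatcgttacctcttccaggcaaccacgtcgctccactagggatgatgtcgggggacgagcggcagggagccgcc
Slc6a9: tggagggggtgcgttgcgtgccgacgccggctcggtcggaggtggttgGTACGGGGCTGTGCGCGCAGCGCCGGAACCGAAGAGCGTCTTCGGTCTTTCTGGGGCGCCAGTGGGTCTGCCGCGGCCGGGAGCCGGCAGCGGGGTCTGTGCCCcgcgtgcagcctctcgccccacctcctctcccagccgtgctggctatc
Gabrb2: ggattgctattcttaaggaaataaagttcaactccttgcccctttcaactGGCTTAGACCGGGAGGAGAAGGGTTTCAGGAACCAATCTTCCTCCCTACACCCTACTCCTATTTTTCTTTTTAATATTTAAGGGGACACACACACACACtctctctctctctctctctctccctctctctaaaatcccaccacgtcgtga

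These windows were unlike in base composition. Over 200 bp, the Gabbr2 window held 76.5% G or C with 32 CG dinucleotides, the Slc6a9 window 73.0% with 25, and the Gabrb1 window 64.0% with 16. The windows of Gabra2 (55.0%, 14 CG), Gabbr1 (48.5%, 2 CG) and Gabrb2 (45.0%, 3 CG) were poorer in both. Over the 30 member peaks within 1 kb of a TSS the mean was 53.1% ± 10.1 (SD over windows), against 57.5% ± 10.7 for all 15282 such peaks.

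At least 1 assigned peak was found for 29 of 30 members, where 71.0% of the 21911 protein-coding genes had one. A peak within 1 kb of a TSS was assigned to 16 of 30 members (41.6% of all genes), and for 12 of the 30 such a peak was not of constant height (28.3% of all genes). Members were long genes, with a median length of 80.1 kb against 17.4 kb for all. Among genes of at least 50 kb, 10 of 19 members had a peak within 1 kb of a TSS, against 59.4% of all genes of that length. Below 50 kb the count was 6 of 11, against 36.4%, but these members had a median length of 28.2 kb against 11.3 kb for all genes below 50 kb. Counted against the 5′ end of the whole gene rather than any transcript's start, 11 of 30 members had an assigned peak within 1 kb (31.9% of all genes). A peak lay over that gene start itself in 4 of 30 members, Gabbr2, Gad2, Gabrp and Slc32a1 (20.4% of all genes). A peak in the top 10% by maximum signal (at least 189) was assigned to 11 of 30 members (24.8% of all genes).

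**Figure D1:**
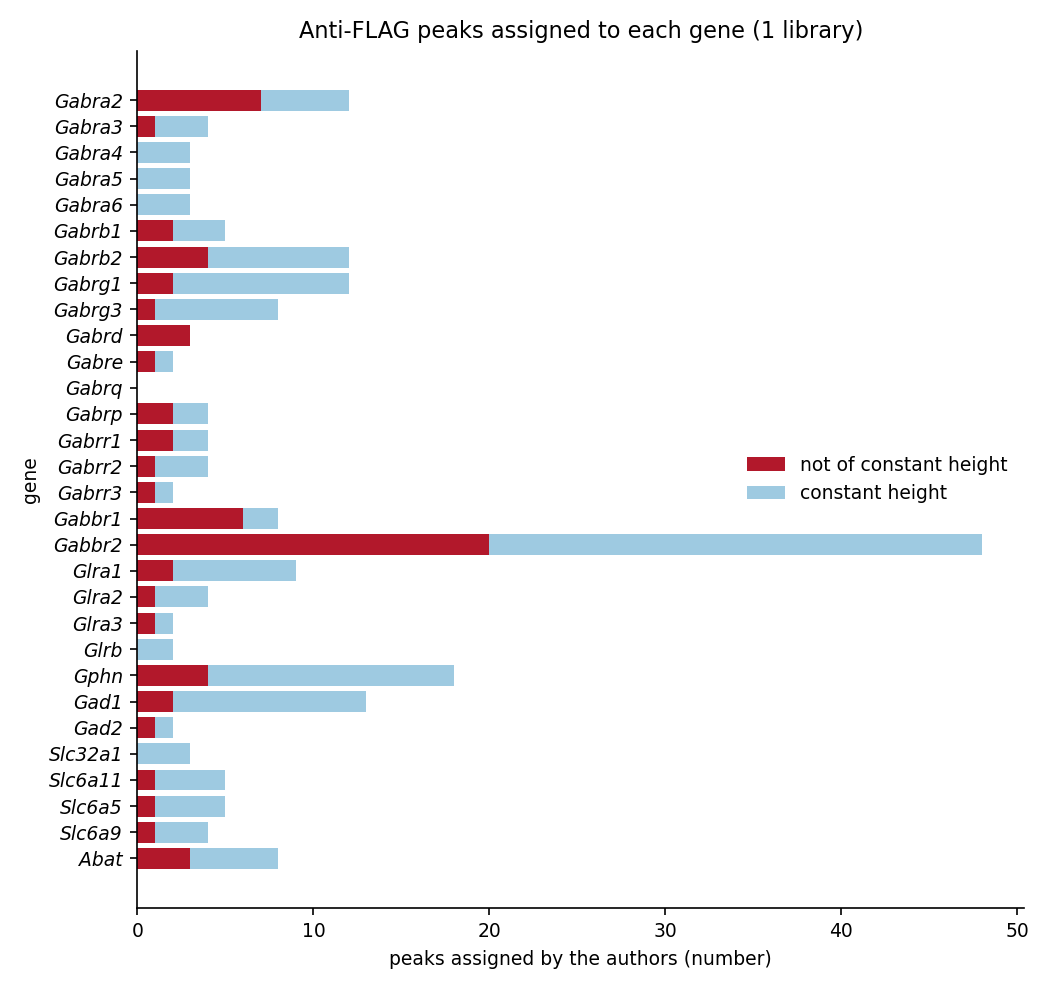
Assigned peaks per member, with genes ordered by role, and the peaks split by shape. Gabbr2 had 48 of the 212 peaks, Gphn 18 and Gad1 13, and Gabrq had 0.

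Peaks of members resembled the other peaks in height and width. Their maximum signal had a median of 105.5 (quartiles 65.75 and 136.25, range 12 to 322), and their median width was 365 bp against 363 bp for all peaks. Constant height was found for 142 of 212 (67.0%, exact 95% interval 60.2 to 73.3; all peaks 63.3%). Promoter positions, within 3 kb of a TSS, made up 46 of 212 (21.7%, 16.3 to 27.9; all peaks 24.6%). Distal intergenic positions made up 51 (24.1%, 18.5 to 30.4; all peaks 31.9%), and exons 6 (2.83%; all peaks 3.52%). Introns made up 109 (51.4%, 44.5 to 58.3) against 38.0% of all peaks, and without Gabbr2 66 of 164 (40.2%). The intron class also counts introns outside the assigned gene, such as that of a Gad2 peak at -52406 bp from its TSS. Intervals cover counting error over peaks only.

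The GABA-B receptor works as a heterodimer, in which the Gabbr1 subunit binds GABA and the Gabbr2 subunit couples to G proteins. Gabbr2 (chr4:46662305-46991873, minus strand, 329.6 kb) had 48 assigned peaks, or 22.6% of all peaks of members, and ranked 55 of 21911 protein-coding genes by that number. Its gene body held 14.3 peaks per 100 kb, 3.41 times the density of chromosome 4, which ranked 303 among the 5003 genes of at least 50 kb. Of the 48 peaks 20 were not of constant height, and 11 reached the top 10% by maximum signal, where all members together had 25.

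The peaks of Gabbr2 lay mostly inside introns. There were 43 intronic peaks in 13 of 18 introns: 12 in intron 1, 7 in intron 7, 5 in intron 3, and 4 each in introns 4 and 13. The highest peak of any member, with a maximum signal of 322, lay in intron 4 at chr4:46814404-46815718. Intron 1 reached 304 and intron 7 reached 280. Over the gene start itself lay a peak of 812 bp (chr4:46991091-46991902) with a maximum signal of 283, at percentile 97.2 of all peaks. The tallest intronic peaks thus reached the height of the one at the gene start. That peak at the start had a total signal of 130589 (coverage summed over its bases). The other peaks within 1 kb of a TSS were low and of constant height: one of 344 bp upstream of the gene (chr4:46992589-46992932) reached 65 with a total signal of 22359, and one of 575 bp at an internal start (chr4:46724198-46724772) reached 18 with a total of 10349.

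**Figure D2:**
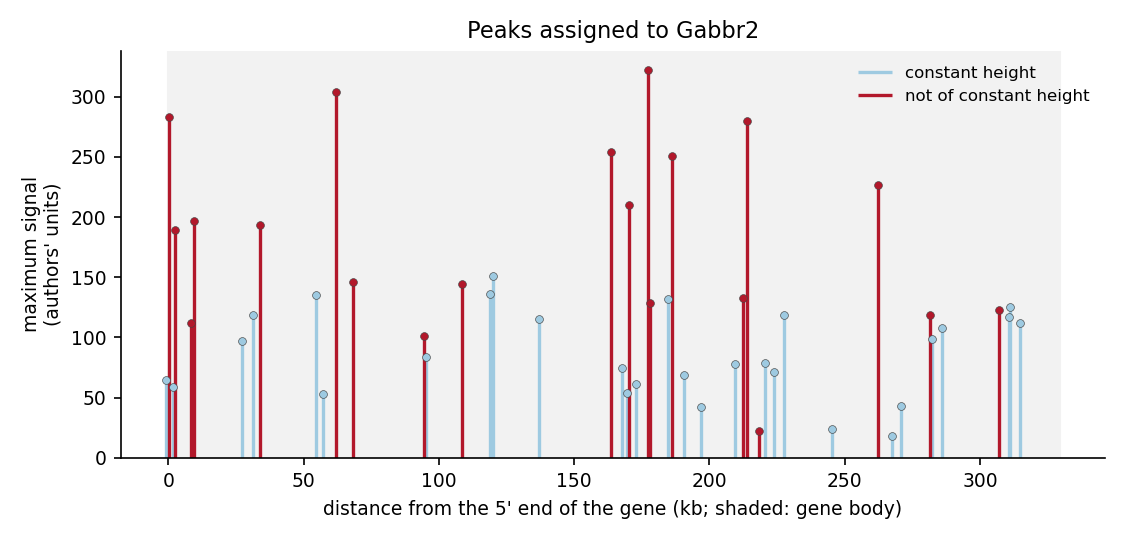
Maximum signal of each Gabbr2 peak by its distance in kb from the 5′ end of the gene, in the authors' units, with peaks of constant height marked apart. Tall peaks of 283 at the start and up to 322 in intron 4 stand among low ones along the gene.

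Gabbr1 (chr17:37045966-37075067, plus strand, 29.1 kb) showed another layout. All of its 8 peaks were of the promoter class, 6 lay within 1 kb of a TSS, and 6 were not of constant height. The 6 within 1 kb are spread along the gene and were assigned to 4 different transcripts. The peak upstream of the gene (chr17:37044885-37045381, 497 bp) reached 136 with a total signal of 57593, and it alone was assigned to the start of a protein-coding transcript. Further in, a peak of 308 bp (chr17:37047508-37047815) reached 157 with a total of 29415, and one of 1070 bp (chr17:37048253-37049322) reached 225 with a total of 74711. Low peaks of constant height followed, of 475 bp (chr17:37061556-37062030, maximum 66, total 31349) and 330 bp (chr17:37063696-37064025, maximum 57, total 18806). The last, of 684 bp (chr17:37069889-37070572), reached 130 with a total of 55430. The highest peak of Gabbr1, at 245, lay outside this set, 2571 bp from its assigned TSS. The density over the gene was 24.1 peaks per 100 kb, 5.26 times that of chromosome 17. No peak covered the 5′ end of the gene: counted from it, with positive values into the gene, the nearest peaks ended at -585 bp and began at 1542 bp.

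GABA-A receptors are pentamers whose alpha and beta subunits form the GABA site, while the gamma or delta subunit decides much of their place at or outside the synapse. The 16 ionotropic GABA receptor genes had 81 peaks, 27 of them not of constant height. Of the 16, whose median length was 72.9 kb, 7 had a peak within 1 kb of a TSS. The share of all protein-coding genes was 41.6%, or 36.4% under 50 kb and 59.4% from 50 kb. Among the 5 listed alpha subunits only Gabra2 and Gabra3 had such a peak. Gabra2, a main alpha subunit of the hippocampus, had 12 peaks, and its peak upstream of the gene start (chr5:71096081-71097026, 946 bp) reached 203, at percentile 91.7, with a total signal of 74394. Its other peaks within 1 kb lay inside the gene at starts of transcripts not classed as protein-coding, and both reached 103: one of 630 bp (chr5:71094867-71095496, total 50133) and a constant-height one of 247 bp (chr5:71093817-71094063, total 25439). Gabra3, on chromosome X, had 4 peaks, and the one within 1 kb of a TSS was 884 bp wide (chrX:72655474-72656357) and reached 82 with a total of 38560.

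The remaining alpha subunits of the list had constant-height peaks only. Gabra4, a partner of the delta subunit in the dentate gyrus, had 3 peaks, the nearest 1854 bp from a TSS with a maximum signal of 116. Gabra5, the subunit of extrasynaptic receptors on hippocampal pyramidal cells, also had 3, up to 159, the nearest at -3096 bp. Gabra6, known from cerebellar granule cells, had 3 distal peaks between 69 and 97 and none within the gene.

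Both beta subunits of the list had peaks of varying height near a TSS. The tallest peak of Gabrb1 (chr5:71700538-71701947, 1410 bp) reached 271, at percentile 96.8, with a total signal of 169682, and its 4 other peaks reached 45, 71, 13 and 21. The tall peak was 952 bp from its assigned TSS but 42786 bp into the gene, so it lies at an internal start and not at the 5′ end, and a start of Gm38562 is within 1 kb as well. A further 10 peaks inside Gabrb1 were assigned to other genes. Gabrb2 had 12 peaks, with a broad one of 1646 bp (chr11:42420042-42421687) that began 285 bp into the gene and reached 164 with a total signal of 134993. Another of 229 bp, at 114 (total 25782), lay upstream of the gene (chr11:42418613-42418841), and the highest, at 172, lay 2292 bp from a TSS.

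Of the listed gamma subunits, which anchor receptors at synapses and form the benzodiazepine site with alpha, Gabrg1 had 12 peaks and 10 of these were distal intergenic. Those 10 lay downstream of the gene, 121397 to 611243 bp from the assigned TSS. Gabrg1 held 1 peak in its body, or 1.09 per 100 kb, 0.234 times the density of chromosome 5. Its single peak within 1 kb of a TSS was 97 bp wide (chr5:70843248-70843344), of constant height, and reached 87 with a total of 8436. Gabrg3, at 670.7 kb the longest member, had 8 peaks, 1 of them not of constant height, and the density over its body was 1.64 per 100 kb, 0.369 times that of chromosome 7. A narrow constant-height peak 47 bp upstream of its gene start reached 52 and was assigned by the authors to Gm9962, so it is not among the 8.

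Gabrd, whose delta subunit forms extrasynaptic receptors that carry tonic inhibition in the dentate gyrus, had 3 peaks, none of constant height, with maximum signals of 229, 227 and 112. The nearest (chr4:155395315-155396452) was 2296 bp from its assigned TSS, so Gabrd has none within 1 kb although its tallest peaks stood at percentiles 94.2 and 94.1. Only the peak at 229 lay in the gene. Those at 227 and 112 lay upstream of it, at -4284 and -5162 bp from their assigned TSS. Gabrp, the pi subunit of peripheral tissues, had 4 peaks, with one of 768 bp over the gene start (chr11:33578732-33579499) that reached 94 with a total of 43645. Gabre, the epsilon subunit, had 2 distal peaks, of 233 at -23447 bp and 80 at -23674 bp, and none in the gene. Gabrq had none in or assigned to it, and the nearest peak lay 75751 bp away. The rho subunits, best known from the retina, had 4 (Gabrr1), 4 (Gabrr2) and 2 (Gabrr3) peaks, and of these only a 74 bp constant-height peak of Gabrr2 (chr4:33079509-33079582, maximum 130, total 9618) lay within 1 kb of a TSS. Gabrr1 reached 215 at -18610 bp, and Gabrr3 reached 147 at -10969 bp.

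**Figure D3:**
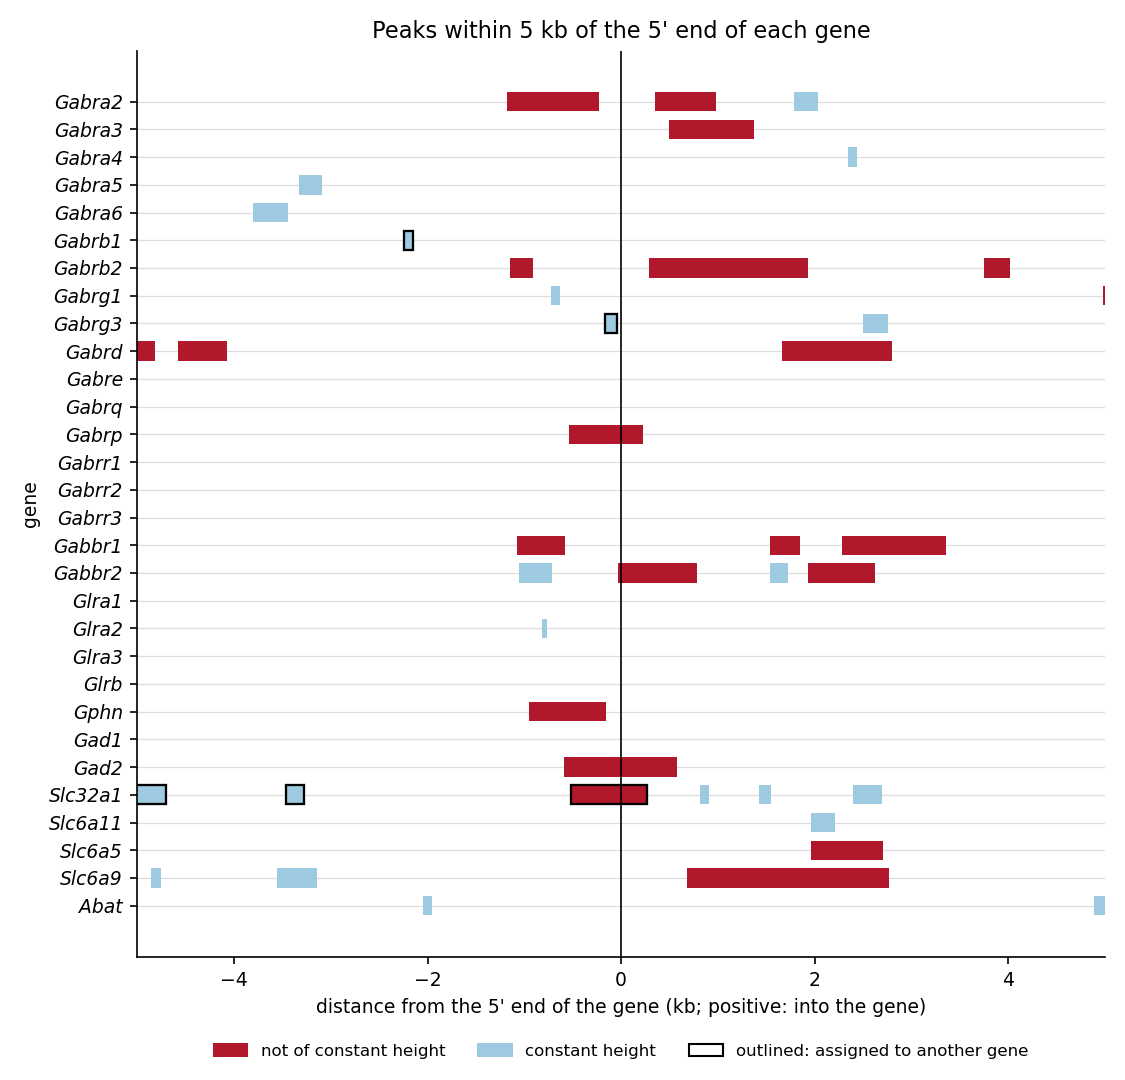
Peaks around the 5′ end of each member, by distance from it in kb, with peaks assigned to other genes outlined. Peaks cover the start of Gabbr2, Gad2, Gabrp and Slc32a1, and those of the other members lie to either side or outside the window.

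Glycine receptors are built from alpha subunits and the beta subunit, which binds gephyrin. The 4 listed genes had 17 peaks, 4 of them not of constant height. Of the 4, all of at least 50 kb, only Glra2 had a peak within 1 kb of a TSS. The share was 41.6% over all protein-coding genes and 59.4% over those of at least 50 kb. That of Glra2 was a 57 bp constant-height peak (chrX:165328157-165328213) at 99 with a total of 5622. Glra1, the adult form of spinal cord and brainstem, had 9 peaks, up to 191 at a distal position, the nearest at 14776 bp. Glra3 had 2 intronic peaks, at 102 and 75. Glrb had 2 constant-height peaks at 33 and 25, and its highest was at percentile 8.62 of all peaks, the lowest such value among members with a peak.

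Gphn encodes gephyrin, the scaffold under glycine receptors and many GABA-A receptors. It had 18 peaks over 458.4 kb of gene and its surroundings, of which 11 were distal intergenic upstream and 4 were not of constant height. The peak nearest its start (chr12:78225423-78226226, 804 bp) lay at -460 bp and reached 111 with a total signal of 61120, and a start of Gm48226 is within 1 kb of it too. Inside the gene all 6 peaks were of constant height, and the density there was 1.31 per 100 kb, 0.347 times that of chromosome 12.

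Glutamate decarboxylase, the enzyme that makes GABA, is encoded by Gad1 and Gad2. Gad1 (chr2:70553072-70602014) had 13 peaks and a density of 24.5 per 100 kb, 5.75 times that of chromosome 2, but only 2 of the 13 were not of constant height. Its 8 promoter-class peaks lay within 8.36 kb (chr2:70559526-70567883), 7 of them of constant height, and 5 of the 8 were within 1 kb of a TSS. The widest of these, of 563 bp (chr2:70562534-70563096), varied in height, with a maximum of 127 and a total of 8567. The 4 of constant height were 86 bp wide with a maximum of 114 (chr2:70561630-70561715, total 9803), 98 bp with 65 (chr2:70564353-70564450, total 6367), 99 bp with 118 (chr2:70566133-70566231, total 11681) and 137 bp with 162 (chr2:70566785-70566921, total 22192). A start of Gad1os, an antisense transcript, is within 1 kb of the peaks at 127 and 65, and no peak covered the 5′ end of Gad1 itself. Gad2 had 2 peaks, and the 1176 bp peak over its gene start (chr2:22621612-22622787) reached 100, near the median of all peaks, with a total signal of 44811. The pair thus had mostly narrow peaks of constant height some way into Gad1 and 1 broad peak at the start of Gad2.

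Slc32a1, the transporter that loads GABA and glycine into vesicles, is the shortest member, at 4.98 kb, and its body held 4 peaks, or 80.3 per 100 kb, which is 18.8 times the density of chromosome 2. It had 3 constant-height peaks of 128, 133 and 93. The one within 1 kb of its TSS was 94 bp wide (chr2:158611581-158611674, maximum 128, total 12028). The peak over its gene start (chr2:158610248-158611034, maximum signal 76, not of constant height) was assigned by the authors to Gm14204 and is counted here only as a peak over the gene start and in the body. Of the listed uptake transporters, Slc6a9, the glial glycine transporter, had the widest peak of any member, 2087 bp at chr4:117835192-117837278, with a maximum signal of 183 and a total of 148947. Slc6a5, the neuronal glycine transporter, had 5 peaks, the one within 1 kb of a TSS (chr7:49912111-49912856, 746 bp) reaching 111 with a total of 41670. Slc6a11, a GABA transporter of astrocytes, had 5 peaks up to 176 and none within 1 kb. Abat, the mitochondrial transaminase that breaks down GABA, had 8 peaks, the highest at 234 in intron 1, and the nearest to a TSS, at 54, lay at -1955 bp.

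**Figure D4:**
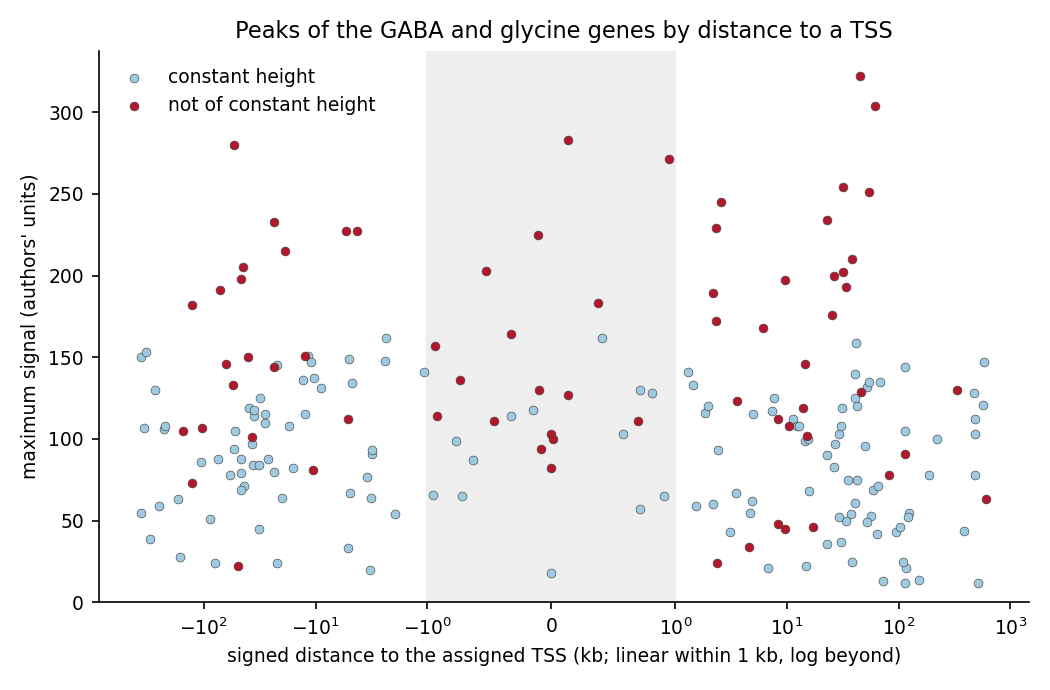
Maximum signal of the 212 member peaks against signed distance to the assigned TSS in kb (linear within 1 kb, log beyond), by shape. Peaks within 1 kb run from 18 to 283, and peaks far from any TSS reach 322.

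The 30 peaks within 1 kb of a TSS were close in height to others of that kind. Their median maximum signal was 114, against 116 for all such peaks, and 13 of the 30 were of constant height (43.3%, against 44.5%). Their median distance to the TSS was 492 bp against 177 bp for all peaks within 1 kb. The start they were assigned to belonged to a protein-coding transcript in 18 of 30 (60.0%, against 60.5%).

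By the median, members of at least 50 kb had fewer peaks than other genes that long, and shorter members had more than other shorter genes. Over all lengths members had a median of 4 assigned peaks (all protein-coding genes 2), among genes of at least 50 kb 5 (all 6), and among shorter ones 4 (all 1). Lengths still differed within these classes. The median was 28.2 kb for the shorter members against 11.3 kb for all shorter genes. From 50 kb it was 118.7 kb against 99.4 kb. The part of length in these counts was not tested. Over the gene body the median density was 3.30 per 100 kb against 3.95. Among genes of at least 50 kb these medians were 2.93 for members and 4.41 for all, and among shorter ones 7.10 and 3.44. No peak lay in the body of 4 members (Gabra6, Gabre, Gabrq and Gabrr3). Of the members' own peaks 143 lay in the gene and 69 outside it, while 24 more peaks inside members were assigned to other genes.

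**Figure D5:**
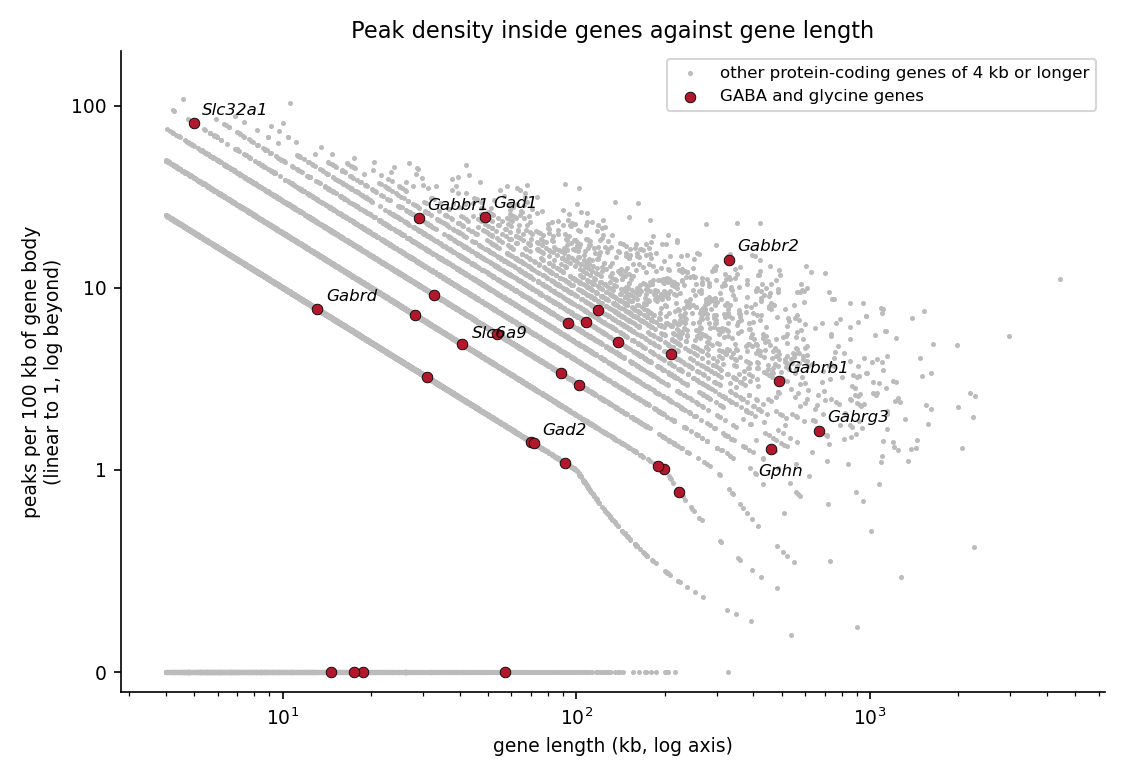
Peaks per 100 kb of gene body against gene length in kb, both on log axes (density linear to 1), with members over the other protein-coding genes of 4 kb or longer. Slc32a1, the shortest member, stands highest at 80.3, Gabbr2 at 14.3 and Gabbr1 and Gad1 at 24.1 and 24.5, and the longest members, Gabrg3, Gabrb1 and Gphn, at 1.64, 3.06 and 1.31.

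Several members are neighbours, and these clusters differed in density. Across the 1398 kb from Gabrg1 to Gabrb1 on chromosome 5, which also holds Gabra2 and Gabra4, there were 2.50 peaks per 100 kb, 0.537 times the chromosome. The Gabrg3 and Gabra5 pair on chromosome 7 had 1.89 (0.426 times), and the pair Gabra6 and Gabrb2 on chromosome 11 had 4.65 (0.822 times). The Gabrr2 and Gabrr1 pair on chromosome 4 had 6.96 (1.66 times). Gabre, Gabra3 and Gabrq on chromosome X had 1.19 (0.988 times), and chromosome X as a whole had 1.21 against 4.08 on the autosomes. Inside these genes Gabra3 had 0.892 and Gabre and Gabrq had 0.

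The 9 members best known outside the hippocampus (Gabra6, Gabrp, Gabrr1, Gabrr2, Gabrr3, Glra1, Slc6a5, Gabre and Gabrq) had 33 peaks, and 3 of the 9 had one within 1 kb of a TSS. Of the other 21 members 13 had one, with 179 peaks in all, where the share of all genes was 41.6%, or 36.4% under 50 kb and 59.4% from 50 kb. Their lengths differed, at a median of 31.1 kb and 108.1 kb, while the median density over the gene was 3.22 and 3.39 per 100 kb. The difference between these lists was not tested.

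The insulin response sequence, reported as the binding element of PARIS, was searched as TATTTTT or TATTTTG on both strands. Within 200 bp at the region of maximum signal it was found in 22 of 212 member peaks (10.4%, exact 95% interval 6.62 to 15.3), from 16 members, against 9.95% of all peaks. Among peaks within 1 kb of a TSS it was in 3 of 30, against 5.40% of all such peaks. These 3 are shown with the motif in capitals because they lie near transcript starts of these genes: Gabrb2 at chr11:42420903-42420931 (plus strand), Gabbr1 at chr17:37045018-37045046 (plus) and Gabra2 at chr5:71095104-71095132 (minus).
Gabrb2: caccctactccTATTTTTctttttaatat
Gabbr1: agatggggaaaTATTTTGttctttttagt
Gabra2: atttgattttcTATTTTTttttttttttg

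The maximum signals of these 3 peaks were 164, 136 and 103, and none was of constant height. Of the 6 windows of 200 bp described first, 1 held the motif, that of Gabrb2. In RefSeq promoters of GRCm38.p6, 250 bases before to 50 after each start, 27 members matched with 34 promoters, and 6 of the 34 held the motif (17.6%, 6.76 to 34.5) against 11.3% of all 32851. These belonged to Gabra3, Gabrg1, Gabrr2, Gabrr3 and Slc6a5. A match of these letters is a description and not a binding site.

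A wider list of 28 genes was examined by the same rule. It holds receptor partners, scaffolds, chloride transporters and further genes of GABA or glycine handling. Of the 28, 24 had a peak and 15 had one within 1 kb of a TSS, which was not of constant height in 13. Over the 26 that are also found by name in GENCODE M21 the counts were 22, 14 and 13, where the shares of all protein-coding genes were 71.0%, 41.6% and 28.3%. The tallest such peaks were those of Nlgn2, an adhesion protein of inhibitory synapses, at 421, Insyn1 at 372, Shisa7, an auxiliary GABA-A subunit, at 356, and Plcl1 at 279. The first 3 of these exceeded 283, the highest value of a member within 1 kb of a TSS.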

How the data were processed

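CUT&Tag with anti-FLAG and with IgG was made from hippocampus, with 1 library each. Per the labels' protocols, the authors used Bowtie2 to align trimmed reads to mm10, dropped duplicates and reads of low quality, and ran SEACR with IgG as the control, while deepTools made tracks not used here. Versions, SEACR settings and the annotation tool are not given in the sources used here. The deposited peak list holds, per peak, the authors' total and maximum signal, in coverage units whose scaling is not stated; sequencing depth is unknown. IgG enters only through peak calling, and no file of it was analysed here.

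Classes, assigned genes and distances to a TSS are the deposited annotation table's. From these, member peaks were counted with Python 3.11.15 and pandas 2.3.3. Gene bodies came from GENCODE M21, and shares carry exact Clopper-Pearson 95% intervals (scipy 1.17.1). Constant height means total signal of at least 99% of maximum times width. Counting was tested on simulated data. All members are named. Sequences are those of the highest peaks within 1 kb of a TSS, up to 6, and of the wider list the 5 with the highest such peak were to be named, of which 1 is not reported here. Members, lists and the shape measure were chosen with earlier results of these data known. Sequence came from GRCm38 and promoters from RefSeq (GRCm38.p6). Alternatives were subsets of peaks by signal, shape or chromosome or without Gabbr2, another shape threshold, other distances and windows, overlap with gene bodies or gene starts, and merging of close peaks.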

Additional observations from a re-analysis of the deposited data

How the results depend on the processing

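No paired analysis was possible because each antibody has 1 library and the labels give no replicate numbers. Over 12 results, 48 alternative values stayed within 1.5 times a count or inside the 95% interval of another value, and 22 did not. The interval of the median density is wide, so its changes are given too. Keeping the top 10% of peaks by maximum signal left 11 members with a peak, 4 with one within 1 kb of a TSS and 25 peaks, with a promoter share of 28.0%, a distal share of 16.0%, a constant-height share of 0%, a median maximum signal of 227 and a median gene-body density of 0. Mean GC content over 200 bp windows was 47.4% for the 212 member peaks and 49.0% for all peaks. Leaving out constant-height peaks gave 70 peaks, a promoter share of 31.4%, a distal share of 15.7% and a median maximum signal of 146. It also gave a GC content of 50.4%, against 47.4%, and a median gene-body density of 1.41 per 100 kb, against 3.30. Over all peaks not of constant height, the promoter share was 32.7% and the distal share 27.7%. Their median maximum signal was 134 and their GC content 52.8%. Keeping peaks above the median gave 114 peaks, a constant-height share of 51.8%, a median maximum signal of 134.5, a GC content of 49.0% and a median density of 1.91. All of these subsets hold fewer peaks by construction, and those chosen by maximum signal also hold taller ones by construction. With a limit of 500 bp, 10 members had a peak near a TSS, and in 400 bp windows 25.5% of member peaks held the motif (all peaks 19.3%). Without the peaks of Gabbr2, an alternative chosen after seeing the data, as was counting from the gene's 5′ end, the intron share was 40.2%, the distal share 31.1% and the GC content 46.1%. Depth is unknown, so a gene without a peak may lack only the reads to show one.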
